A study of Xenopus laevis with 4 samples.

Results

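Frzb and the secreted frizzled-related proteins (sFRPs) are soluble proteins that carry a cysteine-rich domain like the Wnt-binding part of Frizzled receptors. They bind Wnt ligands outside the cell and so keep them from the receptors. Frzb is known in *Xenopus* as a Wnt antagonist of the Spemann organizer, and sfrp5 as a Wnt antagonist of the foregut endoderm, the tissue that gives rise to liver and pancreas. The 5 genes described here were chosen by symbol: all probe sets (groups of probes for a transcript) that the array annotation assigns to frzb.L, frzb.S, sfrp1.L, sfrp5.L or sfrpx.S alone. This gave 5 probe sets, 1 per gene, out of 15491 that were not controls and 7531 genes with a probe set of their own. The suffixes .L and .S mark the homeologues, the gene copies on the long and short chromosomes of this allotetraploid frog.

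The samples were pancreatic buds of *Xenopus laevis* tadpoles, dissected before the buds had fused, with 2 dorsal and 2 ventral pools. Each pool held 1000 to 3000 buds and was hybridised to its own 1-colour Affymetrix array; the labels give no strain, genotype, stage or treatment other than anaesthesia for either group. Whether pools of a kind came from separate batches of embryos is not stated, so the p-values cover the spread between these pools only, and that spread may be technical. The design asks how transcript levels in dorsal buds compare with those in ventral buds.

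Values are deposited intensities on a linear scale, with a mean of 100 on every array. Detection calls were not used here. The highest value of the 17 tag control probe sets, which are not designed against frog transcripts, was 21.5, on ventral replicate 1. On dorsal replicates 1 and 2 the highest was 11.7 and 12.6, and on ventral replicate 2 it was 9.37. Intensities below 21.5 are called dim on every array, so a dim value can still lie above the tag controls of its own array. The ventral arrays correlated at r = 0.981 across probe sets and the dorsal arrays at r = 0.949, while dorsal replicate 1 correlated at 0.962 and 0.954 with ventral replicates 1 and 2, more than with its own replicate. The dorsal replicates also differed from each other in control probe sets, and for the spike controls the ventral replicates did so as well. The ratio of the gapdh probe sets at the 3′ and 5′ ends was 9.69 and 5.53 in dorsal replicates 1 and 2, against 7.52 and 7.55 in the ventral ones. The summed intensity of 12 probe sets for poly(A) spike controls was 2835 and 1445 in dorsal replicates 1 and 2, against 2327 and 3639 in ventral replicates 1 and 2. Among markers of the labelled tissue, pdia2.L, an early pancreas gene, was bright on every array, from 977 to 2483.

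Both copies of frzb were more intense in dorsal than in ventral buds, by nearly the same factor, while sfrp1.L, sfrp5.L and sfrpx.S showed no difference larger than the spread between replicates. None of the 5 passed the test across all probe sets. In limma with Benjamini-Hochberg adjustment, 24 of 9294 tested probe sets (0.258%) had an adjusted p under 0.05, and 0 of the 5 genes did. With dorsal higher, 2 of the 5 (frzb.L and frzb.S) had an unadjusted p under 0.05, against 3.41% of all tested probe sets. All 5 genes passed the filter on dim probe sets and were tested. In bulk tissue, fewer cells of a type and less RNA per cell cannot be told apart.

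The probe set of frzb.L read 91.7 and 235 in the dorsal pools and 41.6 and 52.4 in the ventral pools. Both dorsal pools lay above both ventral pools, and the dorsal pools differed from each other by more than the ventral ones did. The means were 163 ± 102 in dorsal and 47.0 ± 7.66 in ventral buds (SD, n = 2 each). On the log2(intensity + 6) scale, which understates differences of dim genes, the dorsal minus ventral difference was 1.54 ± 0.40 (SE), with a 95% interval of 0.60 to 2.49. This is 2.91-fold, with a limma adjusted p of 0.258 (unadjusted 0.00625) and the same direction in 4 of 4 dorsal-ventral pairs. Single pairs of arrays differed by between 0.74 and 2.34.

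For frzb.S, the intensities were 46.9 and 83.2 in dorsal pools, against 17.2 and 18.9 in ventral pools. Again the groups did not overlap and dorsal replicate 2 was the highest array. The ventral values were dim, so the size of the difference depends on the pseudocount of 6. Dorsal buds averaged 65.0 ± 25.7 and ventral buds 18.0 ± 1.15 (SD, n = 2 each). The log2 difference was 1.51 ± 0.28 (SE), with a 95% interval of 0.84 to 2.19 and a limma adjusted p of 0.112 (unadjusted 0.00109). That is 2.86-fold, in the same direction in 4 of 4 pairs.

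**Figure D1:**
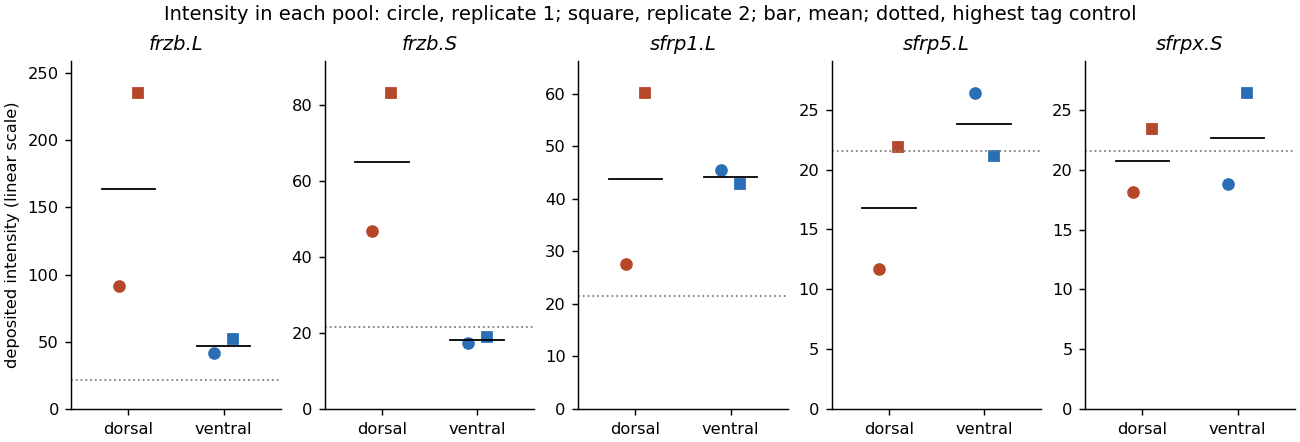
Deposited intensity (linear scale, from 0) of each gene in every pool, dorsal left of ventral; circles are replicate 1, squares replicate 2, bars the means of 2 pools, and the dotted line the highest tag control at 21.5. Both dorsal pools of frzb.L and frzb.S lie above the ventral pools, while the pools of sfrp1.L, sfrp5.L and sfrpx.S overlap.

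Groups that do not overlap, with dorsal higher, were found in 2 of the 5 genes and in 21.9% of tested probe sets. The size of the frzb difference was less common: 11 tested probe sets (0.118%) had a larger dorsal difference than frzb.L and 12 (0.129%) a larger one than frzb.S. Yet 224 other probe sets had an unadjusted p at or below that of frzb.L, whose dorsal pools lay 1.30 apart on the log2 scale. For frzb.S the dorsal pools lay 0.75 apart and 87 other probe sets had a p as low. The genes were chosen with earlier results of these data known, so these ranks do not measure how unusual frzb is.

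The outcome of the test turned on which arrays were in the fit. Without dorsal replicate 1 the difference of frzb.L was 2.19 (limma adjusted p = 5.03e-06). Leaving out dorsal replicate 2 instead gave 0.89 (adjusted p = 0.0342). For frzb.S the same fits gave 1.89 (adjusted p = 9.23e-05) and 1.14 (adjusted p = 0.0155). In these fits the spread comes from the ventral pair alone and the lone dorsal array is assumed to vary like it; the count over all probe sets was then 902 and 348 in place of 24. Without ventral replicate 1 or 2 the adjusted p of frzb.L was 0.999 and 1, and that of frzb.S 0.807 and 0.967, with differences from 1.39 to 1.69. The dorsal direction of both copies held in all 4 of these fits, which the groups' lack of overlap fixes beforehand.

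**Figure D2:**
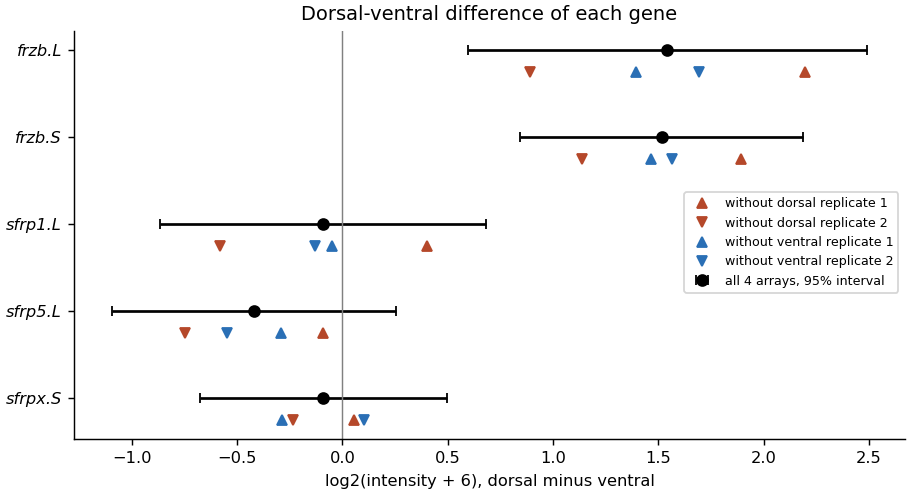
Dorsal minus ventral difference of log2(intensity + 6) for each gene: black points with 95% intervals are the fit on all 4 arrays, and triangles the fits that leave out 1 array. For frzb.L and frzb.S every estimate lies on the dorsal side, from 0.89 to 2.19, and for sfrp1.L and sfrpx.S the estimates lie on both sides of 0.

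No difference between the frzb copies in their dorsal-ventral difference was detectable. Within an array, the log2 value of frzb.L minus that of frzb.S was 0.89 and 1.44 in dorsal pools and 1.03 and 1.23 in ventral pools, so the dorsal range takes in the ventral one. The difference of these differences was 0.03 (exact permutation test over the 4 arrays, two-sided, p = 1, where the smallest p the design allows is 0.333). Cross-hybridisation between homeologous transcripts was not measured, so the copies are not fully separate measurements.

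Among the sFRP genes, sfrp1.L, which encodes a Wnt-binding sFRP, read 27.5 and 60.2 in dorsal pools and 45.6 and 42.8 in ventral pools. Both ventral values lay between the dorsal ones. Its log2 difference was -0.09 ± 0.33 (SE, limma adjusted p = 0.96), with a 95% interval of -0.86 to 0.68. The interval runs from 0.549-fold to 1.61-fold, so a difference of the size seen in frzb lies outside it, while a smaller one in either direction does not. Without dorsal replicate 1 the difference was 0.40, and without dorsal replicate 2 it was -0.58.

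The foregut antagonist sfrp5.L read 11.7 and 21.9 in dorsal pools, against 26.4 and 21.2 in ventral pools. Dorsal replicate 1 was the lowest array and the other 3 lay close together, near the highest tag control. The means were 16.8 ± 7.19 and 23.8 ± 3.72 (SD, n = 2 each), and the log2 difference was -0.42 ± 0.29 (SE, limma adjusted p = 0.74, ventral higher in 3 of 4 pairs). Its 95% interval was -1.09 to 0.26. Without dorsal replicate 1 the difference was -0.09 and without dorsal replicate 2 it was -0.75, so the ventral lean rested mainly on dorsal replicate 1.

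For sfrpx.S, a family member by its annotated name, the intensities were 18.1 and 23.4 in dorsal pools and 18.8 and 26.4 in ventral pools. In each group replicate 2 was the higher array, and the groups overlapped. The log2 difference was -0.09 ± 0.25 (SE, limma adjusted p = 0.947), with a 95% interval of -0.68 to 0.50. Differences inside this interval were not detectable with 2 pools per group. The values lay near 21.5, the highest tag control, but only in ventral replicate 1 below the highest tag control of the same array.

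All 5 genes read higher in dorsal replicate 2 than in dorsal replicate 1, by 2.57-fold for frzb.L, 1.77-fold for frzb.S, 2.19-fold for sfrp1.L, 1.87-fold for sfrp5.L and 1.29-fold for sfrpx.S. Over all tested probe sets the share higher in dorsal replicate 2 was 52%. Dorsal replicate 2 also had the lowest gapdh ratio and the lowest spike intensity of the 4 arrays, and the part of these in the spread was not tested.

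**Figure D3:**
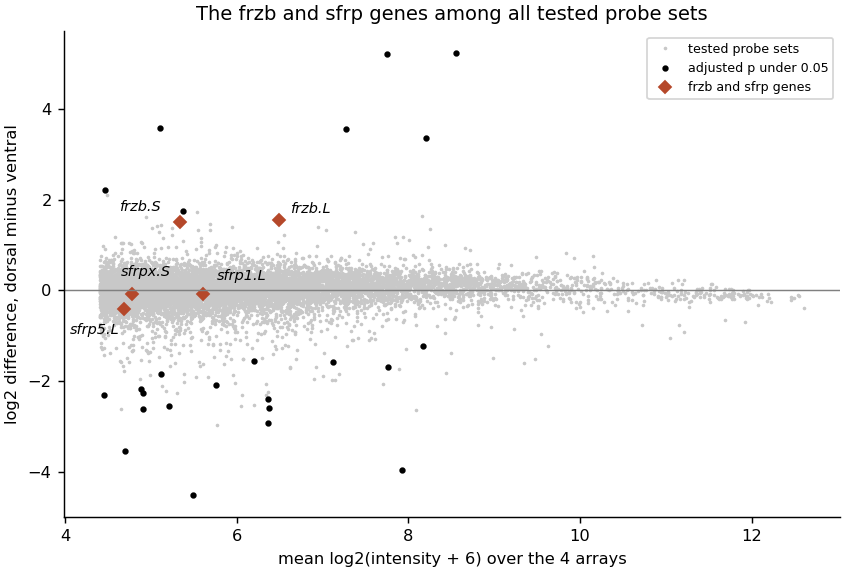
Each tested probe set by its mean log2(intensity + 6) over the 4 arrays (horizontal) and its dorsal minus ventral log2 difference (vertical), with the 24 at an adjusted p under 0.05 in black and the frzb and sfrp genes as diamonds. Both frzb copies lie above the bulk of probe sets at 1.54 and 1.51, and the sfrp genes lie between -0.42 and -0.09.

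The other secreted Wnt antagonists on the array were mostly too dim to pass the filter. Of 9 further probe sets for 8 genes, 1 passed the filter: sfrp2.S, another sFRP, with 27.6 and 34.0 in dorsal pools and 32.1 and 31.4 in ventral pools (log2 difference -0.04, limma adjusted p = 0.97). Below the filter, dkk1.S, which blocks the Wnt co-receptors Lrp5 and Lrp6, read 15.5 and 33.5 in dorsal pools and 9.22 and 4.64 in ventral pools. These groups did not overlap either, and in the fit with no filter the log2 difference was 1.20 (limma adjusted p = 0.433). In contrast wif1.S, which binds Wnt ligands directly, was at 4.10 and 5.83 in dorsal pools and 12.5 and 14.2 in ventral pools, a difference of -0.82 among dim values (limma adjusted p = 0.437 with no filter).

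The remaining antagonists stayed under the highest tag control on every array. These were frzb2.L, also called crescent, with its pair of probe sets between 0.61 and 5.33, dkk2.L between 0.54 and 4.13, and cer1.S, the multi-ligand antagonist Cerberus, between 0.25 and 5.54. Sizzled, an sFRP that inhibits tolloid proteases in the BMP pathway of *Xenopus*, lay between 0.35 and 7.10 for szl.L and between 0.18 and 1.85 for szl.S.

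No gene for a Wnt ligand passed the filter. The 13 probe sets of 12 wnt genes lay below 21.5, the highest tag control, on every array. The brightest was wnt4.L at 14.8 in dorsal replicate 2, above that array's own highest tag control of 12.6. The values of wnt7b.L in dorsal replicate 2 (14.2) and ventral replicate 2 (14.5) were also above the tag controls of their own arrays. Of the genes for ligand release, wls.S, the carrier that brings Wnt proteins to the cell surface, read 32.2 and 45.4 in dorsal pools, against 59.8 and 57.6 in ventral pools. Ventral was higher in 4 of 4 pairs (log2 difference -0.55, limma adjusted p = 0.559), while its homeologue wls.L was at 0.18 (0.927). Groups that do not overlap, with ventral higher, were found in 887 of all 5201 tested genes. The acyltransferase porcn.L, which adds the lipid of Wnt proteins, was at -0.09 (0.931).

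No receptor gene passed the test in limma. Of 22 on the array 13 were tested, each counted by its brightest tested probe set, with 0 past the threshold and 0 at an unadjusted p under 0.05. The median log2 difference was -0.12, against 0.05 over all 5201 tested genes. The largest among the tested genes were those of smo.L, the Frizzled relative that acts in the Hedgehog pathway, at -0.45 (limma adjusted p = 0.678), the co-receptor lrp6.L at -0.36 (0.719) and the Wnt5a receptor ror2.L at 0.23 (0.892). The Frizzled gene fzd7.L had 5 tested probe sets that disagreed, from -0.82 to 1.05, and its brightest stood at -0.13. Below the filter, fzd10.L read 24.6 and 23.4 in dorsal pools and 10.8 and 6.62 in ventral pools. The gene fzd3.L, also below it, read 11.5 and 8.33 in dorsal pools and 21.0 and 22.8 in ventral pools. With no filter their log2 differences were 1.04 (limma adjusted p = 0.324) and -0.82 (0.447).

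Of 30 intracellular pathway genes 19 were tested, with 0 past the threshold and a median of -0.10. The largest difference was in ctnnb1.L, which encodes beta-catenin, the transducer of the pathway: 168 and 430.5 in dorsal pools and 129 and 126 in ventral pools (log2 difference 1.04, limma adjusted p = 0.513). As in frzb.L, dorsal replicate 2 was far above the other arrays, and the homeologue ctnnb1.S stood at -0.27. The planar polarity gene vangl2.S was at -0.68 (0.328) and the Dishevelled-binding dact1.L at 0.65 (0.555). At an unadjusted p under 0.05 stood 2 of the 19 with dorsal higher and 2 with ventral higher, where the share over all tested probe sets was 3.41% dorsal and 5.21% ventral.

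The 11 tested nuclear genes had a median of -0.02 and the 11 tested target genes a median of 0.01. In limma 0 passed in either list, and each held 1 gene with an unadjusted p under 0.05, ventral in both cases. The Wnt-responsive factor tcf7l2.L was at -0.66 (limma adjusted p = 0.426), the pathway coactivator bcl9.L at -0.40 (0.699) and the corepressor ctbp1.L at 0.37 (0.699). Among genes known as Wnt targets, the feedback inhibitor axin2 was near 0 for its dorsal-ventral difference in both copies, axin2.L at -0.23 (0.872) and axin2.S at 0.17 (0.871). The protease gene mmp7.L was at -0.99 (0.206) and the helix-loop-helix gene id2.L at -0.24 (0.709).

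The genes whose profile over the 4 arrays was most like that of frzb were found by Euclidean distance between centred log2 values, and all share these 4 arrays. Probe sets with no gene name or several, and the other frzb copy, were left out of these lists. For frzb.L the nearest was neurod1.L, a transcription factor of endocrine cells, at a distance of 0.183, with 30.7 and 73.4 in dorsal pools and 10.5 and 12.5 in ventral pools. The next named genes were frrs1.S, a ferric reductase (0.391), a2m.S, a plasma protease inhibitor (0.434), nid2.L, a basement membrane protein (0.489), and c6.2.L, a complement component (0.503). The profile of frzb.S was nearest to those of a2m.S (0.229), neurod1.L (0.282), frrs1.S (0.291), insm1.L, a further endocrine transcription factor (0.394), and dgat2.L, an enzyme of triglyceride synthesis (0.399). Thus 3 of the 5 neighbours were the same for both copies. Such sharing follows in part from how alike the profiles of frzb.L and frzb.S were, and is not a separate result. The distance between frzb.L and frzb.S was 0.414, and 3 tested probe sets, of which neurod1.L and frrs1.S are named, lay nearer to frzb.L than frzb.S did. Both neurod1.L and insm1.L (ventral 15.1 and 14.0) were tested only through their dorsal values. The filter thus had a part in which genes could be neighbours, and no link of function follows from these lists.

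The neighbours of the sFRP genes lay at smaller distances. The centred values were not scaled, so a profile that varies little between arrays lies near many others. These distances are therefore not comparable with those of frzb, and no link of function follows from them. For sfrp1.L they were ldb1.S (0.0347), nudc.S (0.0435), gpr143.L (0.0832), smarcc1.L (0.0871) and ap1ar.S (0.0912), and for sfrp5.L they were lrrc1.S (0.0601), cers3.L (0.0844), nucb1.S (0.094), fstl1.L (0.0996) and wasf1.S (0.117). The neighbours of sfrpx.S were btrc.S, a ubiquitin ligase subunit that recognises beta-catenin (0.0352), bod1.L (0.0411), tp53bp2.L (0.0554), mad2l2.S (0.0606) and rnf114.S (0.0682).

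Markers of the cell types that the buds could hold compared between the groups as follows, and their part in the frzb difference was not tested. Of 16 endocrine genes 8 were tested, all 8 were higher in dorsal buds with an unadjusted p under 0.05, 4 passed (ins.S, ins.L, pcsk2.L and cpe.L), and the median was 1.69. Over all 5201 tested genes, 208 had such a p with dorsal higher and 281 with ventral higher. The filter takes the mean of all arrays, so genes such as pcsk2.L (ventral 5.26 and 2.83) and neurod1.L were tested only through their dorsal values. The count of 8 is thus partly fixed by the filter, and with no filter the median was 1.345. The summed intensity of the 8 was 3629.5 and 4331 in dorsal pools and 184 and 135 in ventral pools, most of it insulin. Mesenchyme markers went both ways, with col3a1.S at -1.23 and col6a1.L at -1.02 but the matrix protein gene sparc.L at 0.59 and sparc.S at 0.32: 16 of 24 were tested, 0 passed in limma, 1 dorsal and 3 ventral had an unadjusted p under 0.05, and the median was -0.27 (0.05 without dorsal replicate 1). Their sum was 1808 and 2646 in dorsal against 2265 and 2909.6 in ventral pools. Of markers of notochord and of cartilage, a tissue where frzb is known to be expressed, 4 of 10 genes were tested and 0 passed in limma, with 1 at an unadjusted p under 0.05 and a median of 0.004. Their sum was 146 and 195 in dorsal pools, against 140 and 164 in ventral pools. The cartilage collagen col9a1.L stood at 0.95 (limma adjusted p = 0.329), its dorsal pools at 37.2 and 62.5 and its ventral pools at 21.2 and 23.3, while cnmd.L was at -0.23. Below the filter, matn4.L read 5.07 and 24.3 in dorsal pools and 5.81 and 5.64 in ventral pools, and matn1.L and col9a2.L were dim on every array.

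Neural markers were dim on every array for 15 of 21 genes. The 4 tested, with ncam1.S at -0.56 and tubb2b.S at 0.46, summed to 57.6 and 143 in dorsal and 73.5 and 89.1 in ventral pools. In limma 0 passed, 0 had an unadjusted p under 0.05, and the median was 0.13. Endothelial markers (7 of 9 tested, 0 passed, 0 at an unadjusted p under 0.05, median 0.27) summed to 266 and 262 in dorsal and 205 and 257 in ventral pools, with tek.S and egfl7.S both at 0.31. Exocrine markers (11 of 18 tested, 0 passed, 1 at an unadjusted p under 0.05, median 0.21) summed to 16073 and 6104 in dorsal and 12527 and 6562 in ventral pools. The list went both ways, with cpa1.L at 0.89 and ctrc.L at -0.26, and its median was -0.55 without dorsal replicate 1, 1.06 without dorsal replicate 2, 0.77 without ventral replicate 1 and -0.06 without ventral replicate 2. The largest difference, 1.43 for amy2b.S, rested on dorsal replicate 1: it read 200.2 and 9.79 in dorsal pools and 17.0 and 13.4 in ventral pools.

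Marker lists of skeletal muscle, blood and liver had negative medians. Over all 5201 tested genes, 281 had an unadjusted limma p under 0.05 with ventral higher. Skeletal muscle markers (13 of 24 tested, 0 passed in limma, 9 at an unadjusted p under 0.05, median -1.56, with mylpf.L at -2.30 and myl1.S at -2.11) summed to 491 and 364 in dorsal and 867 and 1161 in ventral pools. In 2 of the 13 dorsal was higher, myh6.S at 0.59 and atp2a1.S at 0.05, but another probe set of atp2a1.S was at -2.53. The gene myh6.S was on the list through a pattern over myh gene names, and was not chosen as specific to skeletal muscle. The genes tnnc2.L (22.2 and 1.22 in dorsal pools) and myl1.S (29.4 and 2.07) were tested only through their ventral values. So were tnnc2.S (21.9 and 6.12), tpm1.L (13.2 and 9.89) and tpm2.L (20.2 and 8.49). All but tpm2.L are in the count of 9, which is thus partly fixed by the filter. In turn myh6.S (ventral 16.1 and 12.7) was tested only through its dorsal values. With no filter the muscle median was -0.50. Blood markers (11 of 18 tested, 0 passed in limma, 9 at an unadjusted p under 0.05, median -0.92, with mpo.L at -1.72 and hbg2.L at -1.22) summed to 9935 and 6307 in dorsal and 11803.5 and 16315 in ventral pools. Liver markers (22 of 25 tested, 3 passed on the ventral side, 12 ventral and 0 dorsal at an unadjusted p under 0.05, median -0.99, led by itih2.S at -3.97 and rbp4.L at -2.63) summed to 3569.5 and 6311 in dorsal and 7853 and 7893 in ventral pools. Of the 3 that passed, f9.S (dorsal 8.12 and 7.19) and proc.S (dorsal 10.9 and 13.8) were tested only through their ventral values. So was fgb.L (dorsal 5.96 and 11.6), which did not pass. The count of 12 is thus partly fixed by the filter. In 3 of the 22 dorsal was higher, the largest being apob.S at 0.58. With no filter the liver median was -0.71. Between the dorsal replicates, the sums for neural, mesenchyme, cartilage, endocrine and liver markers were higher in replicate 2, as were the 5 antagonist genes, and those for exocrine, muscle and blood markers were lower. Endothelial sums were nearly equal (266 and 262).

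**Figure D4:**
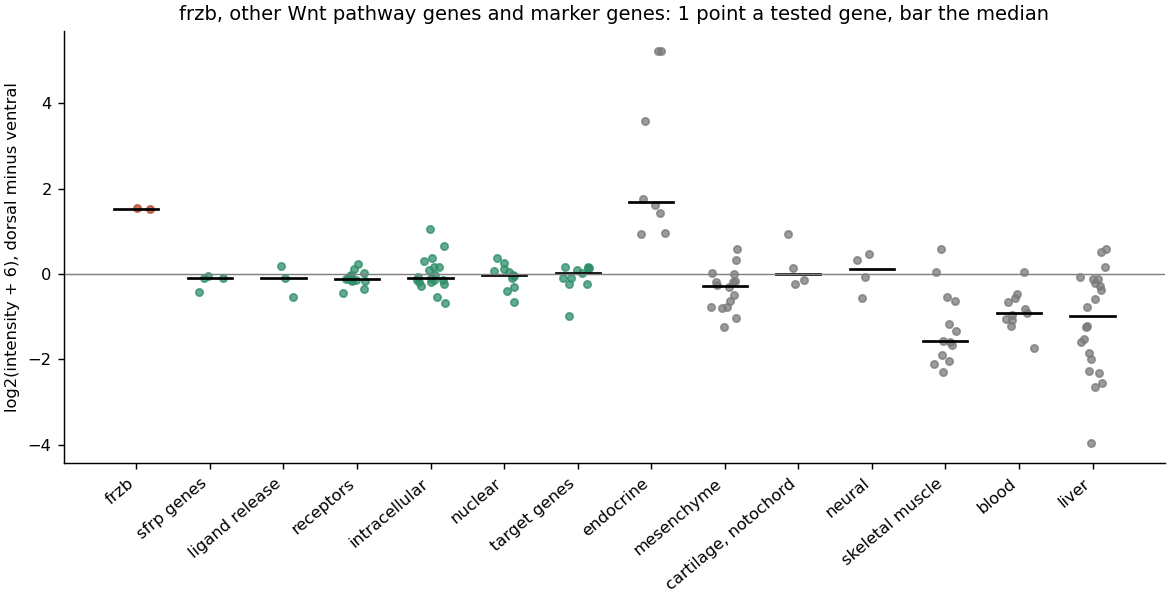
Dorsal minus ventral difference of log2(intensity + 6), 1 point per tested gene and a bar at each median, for frzb (left), the lists of other Wnt pathway genes, and marker lists (grey); the sfrp column also holds sfrp2.S. The medians of the pathway lists lie between -0.12 and 0.01, against 1.54 and 1.51 for the frzb copies, and the endocrine list lies at 1.69.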

How the data were processed

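Total RNA of 4 pools of buds was labelled with biotin from oligo(dT)-primed cDNA, per the labels' protocols. The deposited values are intensities per probe set on a linear scale; the submitters' processing notes name MAS5, whose version, scaling and detection settings are not given in the sources used here. Symbols were brought up to date through a RefSeq table of the assembly *Xenopus laevis* v10.1, which matched 9227 of 9304 probe sets with exactly 1 symbol; 195 with several symbols and 5992 with none were tested but not named, and 120 controls were left out.

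The deposited scaling was kept (trimmed means 61.1 to 63.3). Before log2, 6 was added to each value as a pseudocount (their 20th percentile). The test was limma (version 3.58.1, R version 4.3.3), with lmFit, eBayes with an intensity trend and no covariate, on the 9294 probe sets above the 40th percentile of mean log2, and with Benjamini-Hochberg adjustment over all of them and a threshold of 0.05. The code was tested on simulated data. For lists, a gene was represented by its brightest tested probe set. Replicate numbers were not treated as pairs. Their deviations correlated at 0.0468.

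Named genes were the 5 members, every other secreted antagonist, the 3 largest absolute differences of each pathway list, the 2 largest of each marker list and the 5 nearest profiles of each member. A few others (axin2.S, ctnnb1.S, fzd7.L, wnt4.L, wnt7b.L, pcsk2.L, cpe.L, pdia2.L, matn1.L, matn4.L, col9a2.L, fzd10.L, fzd3.L, sparc.L, sparc.S, ctrc.L, f9.S, proc.S, fgb.L, apob.S, myh6.S, atp2a1.S, tnnc2.L, tnnc2.S, tpm1.L, tpm2.L) were added after their values were seen. Members and lists were chosen with earlier results of these data known. Alternatives covered the pseudocount, filter, scaling, prior, replicate block and leaving out each array. The number of arrays limits the precision.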

Additional observations from a re-analysis of the deposited data

How the results depend on the processing

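The number of probe sets past the threshold was 24. A filter at the 60th percentile gave 13, the replicate block gave 67, and leaving out 1 array gave from 4 to 902. Under that block the difference of frzb.S was 1.51 with a limma adjusted p of 0.0486, and that of frzb.L 1.54 with 0.0531; it changed no call of the other 3 genes, and nothing shows that the numbers pair pools. Leaving out 1 array, the differences ran from 0.89 to 2.19 for frzb.L, 1.14 to 1.89 for frzb.S, -0.58 to 0.40 for sfrp1.L, -0.75 to -0.09 for sfrp5.L and -0.28 to 0.10 for sfrpx.S. The sign turned for sfrp1.L without dorsal replicate 1 (0.40) and for sfrpx.S without dorsal replicate 1 (0.05) or ventral replicate 2 (0.10), and the cause was not tested. Under the other settings frzb.L ran from 1.29 to 1.63 and frzb.S from 1.05 to 1.74, and the lower ends came with 4 times the pseudocount. The 60th percentile filter left frzb.S, sfrp5.L and sfrpx.S untested. The difference between the frzb copies ran from -0.25 to 0.30 over its 8 alternatives, which were chosen after seeing the data. Over all alternatives the median of the antagonist list without frzb ran from -0.41 to 0.07. In the main fit the tested genes of that list were sfrp1.L, sfrp5.L, sfrpx.S and sfrp2.S, so it is mostly the members themselves. The other list medians ran from -0.34 to -0.04 for ligand release, -0.23 to 0.03 for receptors, -0.14 to 0.15 for intracellular, -0.21 to 0.05 for nuclear and -0.09 to 0.09 for target genes. Mesenchyme ran from -0.76 to 0.05, liver from -1.26 to -0.45, skeletal muscle from -1.97 to -0.50, blood from -1.28 to -0.59, exocrine from -0.55 to 1.06, neural from -0.33 to 0.75, cartilage and notochord from -0.14 to 0.21, endothelium from -0.04 to 0.33 and endocrine from 1.13 to 5.21. The median of the endocrine list was 5.21 under the stricter filter, where fewer of its genes were tested. Intensities near the highest tag control, which was on ventral replicate 1, limit what can be said of sfrp5.L and sfrpx.S.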

Other observations

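On the cartilage and notochord list, shh.L, which encodes the ligand Sonic hedgehog, had been removed by the filter on dim probe sets. Its intensities were 0.763 and 3.44 in dorsal pools and 33.0 and 59.6 in ventral pools, so the dorsal pools were dim and the ventral pools were not. In the fit with no filter its log2 difference was -2.66, with a limma adjusted p of 0.0684. This gene was chosen after its values were seen.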
